A study of Mus musculus with 6 samples.

Results

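Interferon-stimulated effector genes encode the proteins with which a cell that has sensed interferon blocks virus entry, replication and release. The 54 genes described here were taken by name from 57180 genes with a deposited count, as interferon-stimulated genes outside the OAS, PARP, IRF, STAT and interferon-inducible GTPase families, with *Mx1* and *Mx2* kept in. They were read in osteoclast precursors (OCPs) grown from bone marrow-derived macrophages (BMDMs) of C57BL/6 wild-type (WT) mice and of lincRNA-EPS knockout (KO) mice, with 3 libraries per genotype that the submitters call biologically independent. Both genotypes received M-CSF, a macrophage growth factor, at 40 ng/mL for 24 h. RANKL, the cytokine that starts osteoclast differentiation, was then added at 40 ng/mL for 48 h. The knockout was carried by the mice, and neither the design of the allele nor the ages of the mice sequenced were given in the sources used here. The comparison asks how these genes differ in RANKL-primed precursors without the RNA, and no interferon or LPS is named for the cells sequenced.

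Type I interferon binds the receptor pair IFNAR1 and IFNAR2, and the kinases JAK1 and TYK2 then activate transcription factors, STAT2 and IRF9 among them. These bind interferon-stimulated response elements (ISREs) near the start of their target genes, and IRF7, itself a target, amplifies interferon production. In the osteoclast lineage RANKL is known to induce interferon-β, which restrains further differentiation, so macrophage-lineage cells can carry a low interferon tone without infection. LincRNA-EPS is known from macrophages as a nuclear RNA that restrains the transcription of immune response genes.

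The total was between 17757351 and 19998611 estimated counts per library. WT replicates 1, 2 and 3 held 20, 37 and 41 counts of LincRNA-EPS, listed as *Ttc39aos1*, and each KO library held 0. The macrophage markers were abundant, with a summed level of 16927 to 18274 CPM (counts scaled to a common library size after TMM normalization) in WT and 15527 to 18191 in KO. Most of this sum was *Lyz2*, at a mean of 13303 CPM in WT and 12882 CPM in KO. Of the 8 macrophage markers 4 were lower in KO without overlap, against 18.8% of all genes tested. Log2 fold changes of the 4 were -0.57 for *Mertk*, -0.29 for *Adgre1*, -0.27 for *Csf1r* and -0.25 for *Itgam*. With an offset for each library's trend against the GC content of the genes (the GC correction) *Csf1r* was at -0.11 with overlapping libraries. In that fit 3 markers were lower without overlap, and *Cd68* and *Tyrobp* were higher without overlap, against 18.6% and 16% of all genes tested. The summed level of 9 osteoclast precursor markers was 4945 to 5365 CPM in WT and 6685 to 7104 CPM in KO, and that of 10 neutrophil markers was 1256 to 1416 CPM in WT and 1681 to 2024 CPM in KO, so that both differed between the genotypes without overlap of the libraries. Within the neutrophil list *S100a8*, *S100a9* and *Ngp* were among 6 genes higher in KO without overlap, against 16.9% of all genes tested. *Mpo* and *Elane* were lower without overlap, against 18.8%, with log2 fold changes of -0.42 and -0.33. With the correction these became -0.19 and -0.088, and the libraries of both genes overlapped. Markers of T and NK cells summed to at most 0.460 CPM, with *Gzma* at 0 in all libraries, and those of red cell precursors to at most 0.735 CPM. B cell markers gave 6.56 to 9.201 CPM over all libraries and conventional dendritic cell markers 12.6 to 19.0 CPM, with sums of 17.1 to 19.0 CPM in KO against 12.6 to 16.5 CPM in WT for the latter. Plasmacytoid dendritic cell markers gave 46.5 to 60.9 CPM, most of it from *Tcf4* and *Runx2*, with *Klk1* at 0 in all libraries. Stromal and osteoblast markers, which also count *Runx2*, gave 21.3 to 32.2 CPM. The part of these cell type shares in the values below was not tested, and in bulk RNA fewer cells of a type and less RNA per cell cannot be told apart.

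The ISRE was looked for in the RefSeq promoter windows, 250 bases before to 50 after each transcription start in GRCm38.p6, because it is the element that defines this gene class. A window was found for 47 of the 54 genes. Its core, GAAA, any 2 bases and GAAA again, read on both strands, was present in a window of 23 of the 47 genes, or 48.9%, against 3.99% of 27025 genes with a window. The stretches below carry matches of this core before the start of genes whose values are given later. They are a selection, all from genes with log2 fold changes below 0 in KO in the uncorrected fit. Of the 23 genes with a core 14 were below 0 and 9 above 0 in that fit. *Ifi203*, *Ifi211*, *Slfn9* and *Apobec3*, among those above 0, also hold a core before the start and are not shown. Each is written on the strand of its gene from 5′ to 3′, with the matched core in capitals and 8 bases on either side. Where the core starts with TTTC, the match is on the other strand.
Isg15 (chr4:156200867-156200904, minus strand): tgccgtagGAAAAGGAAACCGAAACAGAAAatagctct
Ifit1 (chr19:34640777-34640821, plus strand): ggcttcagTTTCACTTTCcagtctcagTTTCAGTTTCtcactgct
Ifit3 (chr19:34583365-34583424, plus strand): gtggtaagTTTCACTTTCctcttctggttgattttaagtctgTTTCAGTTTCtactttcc
Ifit3b (chr19:34607761-34607820, plus strand): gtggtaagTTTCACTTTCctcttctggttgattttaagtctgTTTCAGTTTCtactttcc
Ddx60 (chr8:61928026-61928085, plus strand): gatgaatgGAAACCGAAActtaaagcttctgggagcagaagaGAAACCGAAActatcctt
Bst2 (chr8:71537579-71537610, minus strand): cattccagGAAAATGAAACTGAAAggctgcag
Slfn5 (chr11:82951939-82951964, plus strand): ttcaaagtGAAAAAGAAAaaaaaaaa
Slfn8 (chr11:83020841-83020866, minus strand): ttgagcagTTTCGTTTTCcccaaaag
*Isg15* holds 3 overlapping matches, the first at base -78 from its transcription start, and *Bst2* holds 2 that overlap. The 60 bases shown for *Ifit3* and *Ifit3b* differ at 0 positions. A match is a run of letters, and none of these genes was tested for binding. No match stands in the windows of *Cmpk2*, *Helz2*, *Znfx1* and *Adar*, which says only that these letters are not within those bases.

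In WT OCPs the effector genes covered a wide range of levels. Per kilobase of the longest transcript, WT levels ran from 0.0864 ± 0.0185 CPM per kb for *Ifi44* to 197 ± 34.9 for *Ifitm3* (mean ± SD, n = 3). *Ifitm3*, which stops enveloped viruses at the membrane of endosomes, was followed by *Lgals3bp*, a secreted glycoprotein that binds galectins, at 149 ± 13.3, by the surface protein gene *Ly6e* at 140.3 ± 3.32 and by *Slfn2* at 108 ± 5.41 CPM per kb. Neighbours in this order had WT ranges that overlapped in 36 of 53 pairs, among them *Ifitm3* with *Lgals3bp* and *Lgals3bp* with *Ly6e*, and *Ly6e* was separate from *Slfn2*. *Ifit1* was at 1.08 ± 0.0811, *Rsad2* at 1.49 ± 0.127, *Mx1* at 0.745 ± 0.0635 and *Mx2* at 0.266 ± 0.0979 CPM per kb in WT. WT replicates 1, 2 and 3 held 6, 8 and 6 counts of *Ifi44* and the KO libraries, in the same order, 5, 3 and 11, and the gene did not pass the expression filter, which leaves 53 of the 54 genes tested among 13428. *Ifitm3*, the highest, had 136, 108 and 155 CPM in WT replicates 1, 2 and 3 and 131, 129 and 150.3 CPM in KO replicates 1, 2 and 3, and its libraries overlapped with a log2 fold change of 0.037 (SE 0.14). *Ly6e* had 312, 326 and 322 CPM in WT replicates 1, 2 and 3 and 285, 310.3 and 300.3 CPM in KO replicates 1, 2 and 3. Its KO libraries were all below its WT libraries by a small margin, with a log2 fold change of -0.10 (SE 0.085) that became 0.10 after the correction for GC content described below.

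**Figure D1:**
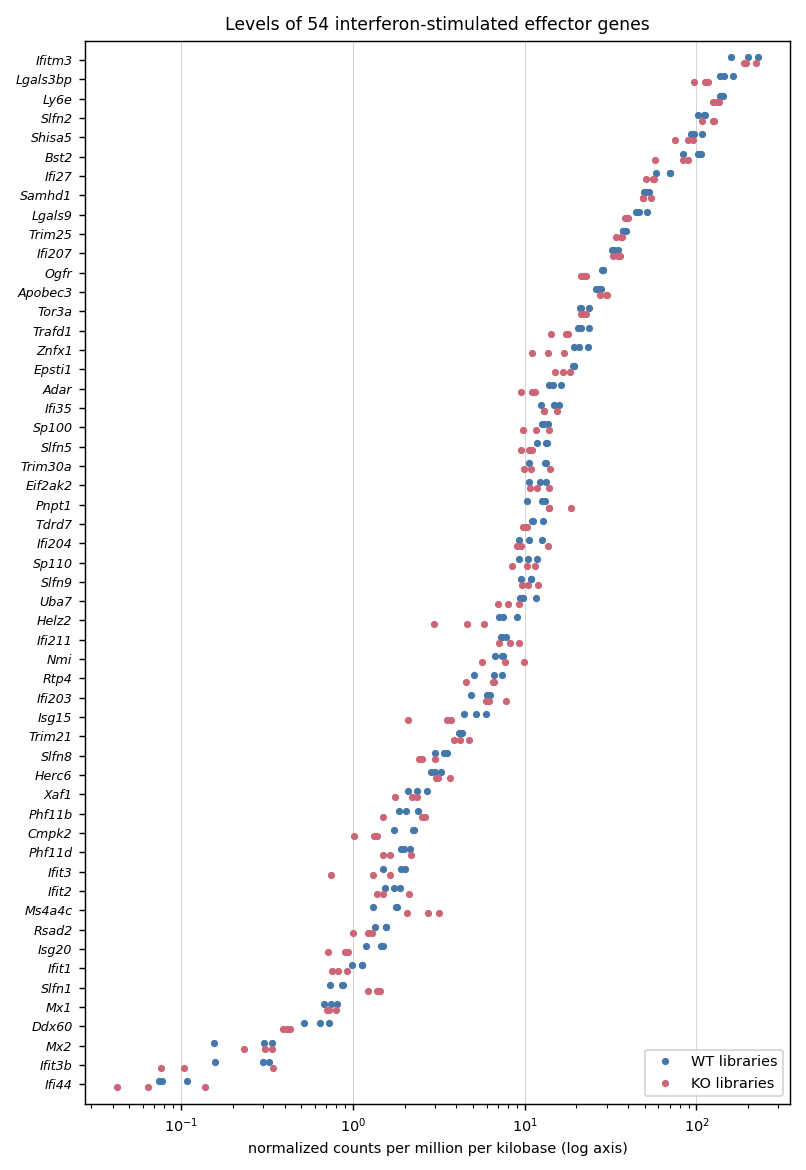
Levels of the 54 genes in each library as CPM per kilobase of the longest transcript, on a log axis, with genes ordered by their WT mean. WT and KO points of most genes lie close together on this scale, and the levels run from *Ifitm3* at the top to *Ifi44* at the bottom.

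In KO OCPs most of these genes were at a somewhat lower level, and none of the differences passed the limits in edgeR's quasi-likelihood test. The limits were a Benjamini-Hochberg adjusted p under 0.01 over all genes tested and a fold change above 1.3. Of the 53 genes, 0 passed as lower and 0 as higher, where 0.00745% and 0% of all genes tested did. DESeq2 called 0 of the 42 to which it gave an adjusted p, against 0.695% lower and 0.521% higher of all genes with one. With limma-voom 0 of the 53 were called. The log2 fold change was below 0 for 36 of the 53 (67.9%) and for 49.0% of all genes tested. Its median was -0.12 over the 53 and 0.0091 over all genes. At an unadjusted p under 0.05 there were 15 genes lower and 3 higher in KO, against 13.2% and 13% of all genes. All 3 KO libraries lay below all 3 WT libraries for 21 of the 53 and above them for 3, against 18.8% and 16.9% of all genes tested. The share of lower genes among the 53 was thus above that among all genes in each of the last counts, and the share of higher genes below it.

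The size of this difference varied among the KO libraries. Relative to the WT mean of each gene on a log2 scale (CPM + 0.5), the median of the 53 genes was -0.27 in KO replicate 1, -0.16 in KO replicate 2 and -0.060 in KO replicate 3, and between -0.018 and 0.040 in the WT libraries, which set the reference. Over all genes tested the median of a library lay between -0.0029 and 0.0051. KO replicate 1 had 41 of the 53 genes (77.4%) below the WT mean, KO replicate 2 had 39 (73.6%) and KO replicate 3 had 29 (54.7%). Of all genes tested, 48.9%, 50.2% and 49.7% were below it in the same libraries. WT replicates 1, 2 and 3 had 27, 30 and 18 of the 53 below it, so that KO replicate 3 was within the WT range. In all 3 KO libraries 25 genes (47.2%) were below the WT mean, against 31.1% of all genes tested. KO replicate 3 held both the lowest and the highest value of any gene in any library, -1.39 and 0.87. Without KO replicate 3 the median log2 fold change was -0.20, and without KO replicate 1 it was -0.065, so that these libraries move it by over 1.5 times in opposite directions. The number of lower genes with an unadjusted p under 0.05 was 9 without WT replicate 3, against 10.4% of all genes in the same fit, and between 12 and 19 without each other library, against 5.6% to 16.7%. The number of genes with KO above WT without overlap was 8 without KO replicate 1, against 26.8% of all genes.

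**Figure D2:**
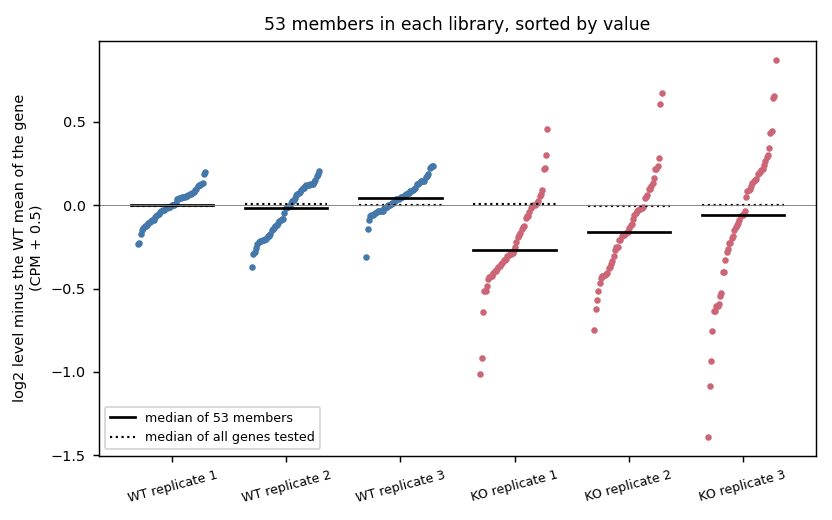
Log2 level of the 53 tested genes in each library minus the WT mean of the same gene (CPM + 0.5), sorted within a library, with the median of the 53 genes (solid line) and of all genes tested (dotted line). The solid line lies below the dotted line in all 3 KO libraries, at -0.27, -0.16 and -0.060, and KO replicate 3 has the widest spread.

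The libraries of this series differ along the GC content of transcripts, and the 53 genes span it from 38.1% to 59.6%. Over 13176 genes, which are not independent replicates, the difference between KO and WT had r = -0.523 with GC content, and 2 libraries of the same genotype, KO replicate 1 and KO replicate 3, differed along it with r = 0.522. The edgeR test was therefore also run with each library's trend against GC content as an offset. With the correction 42 of the 53 genes (79.2%) were below 0, against 50.9% of all genes tested, and the median moved from -0.12 to -0.18. At an unadjusted p under 0.05, 20 genes were lower and 3 higher, against 13.7% and 12.1% of all genes, and the corrected libraries lay apart for 24 lower and 3 higher genes, against 18.6% and 16%. Of the 15 lower genes before the correction, 11 were among the 20 after it. No gene passed the limits, where 0.0149% of all genes were called lower and 0.00745% higher. At an adjusted p under 0.05 with the same fold change 1 gene, *Slfn5*, was lower and 0 were higher, against 0.439% and 0.432%.

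The correction acted in opposite directions at either end of the GC range. In 23 genes the GC content was at or above the median of all genes, and their median log2 fold change of -0.28 became -0.17, where all genes at or above it moved from -0.17 to -0.013. The 30 genes below it had a median of -0.050, which became -0.22, where all genes below it moved from 0.17 to -0.00066. On either side of the median the list was thus below the genes of like GC content in either fit. In all 14 genes changed sign, 10 from above to below 0 and 4 from below to above.

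**Figure D3:**
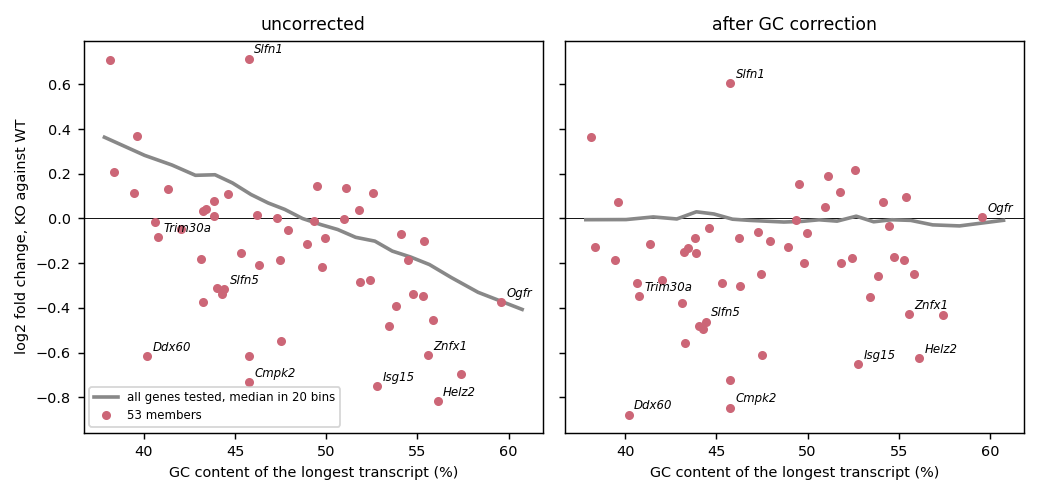
Log2 fold change of KO against WT for the 53 genes (points) against the GC content of the longest transcript in percent, with the median of all genes tested in 20 bins (line), uncorrected at the left and after the GC correction at the right. The line slopes down before the correction and lies near 0 after it, and most points lie below it in both panels.

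*Ogfr* and *Ifi203* stood near the ends of that range. *Ogfr* (chr2:180589245-180595836, GRCm38, as for the positions of genes below) encodes the opioid growth factor receptor. It had 69.9, 69.2 and 70.4 CPM in WT replicates 1, 2 and 3 and 51.8, 54.5 and 55.5 CPM in KO replicates 1, 2 and 3. The libraries were tight and did not overlap, with a log2 fold change of -0.37 (SE 0.087), but at a GC content of 59.6% its value became 0.0050 (SE 0.16) after the correction. *Ifi203*, a HIN-200 gene with a GC content of 38.4%, had 22.6, 18.3 and 23.7 CPM in WT replicates 1, 2 and 3 and 22.2, 23.2 and 29.1 CPM in KO replicates 1, 2 and 3. Its libraries overlapped, and the log2 fold change of 0.21 (SE 0.15) became -0.13 (SE 0.079), with the corrected KO libraries below the WT libraries.

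The enzymes that act on nucleotides and RNA were the largest group, with 6 of the 15 genes lower at an unadjusted p under 0.05, or 6 of 20 with the GC correction. Of its 11 genes, all tested, 6 were lower and 1 higher in each fit, against 13.2% and 13% of all genes tested, or 13.7% and 12.1% corrected. Only 5 were lower in both fits, since *Isg20* was lower in the uncorrected fit alone and *Rsad2* in the corrected one alone, and the higher gene was a different one in each. The median log2 fold change was -0.48, or -0.43 corrected. The helicase gene *Helz2* (chr2:181227615-181242027) had the largest difference of the list in the uncorrected fit. It had 75.8, 91.3 and 71.7 CPM in WT replicates 1, 2 and 3 and 58.7, 46.9 and 29.9 CPM in KO replicates 1, 2 and 3, so that every KO library was below every WT library and KO replicate 3 was the lowest. The log2 fold change was -0.82 (SE 0.22, adjusted p = 0.147 by the quasi-likelihood test of edgeR), and -0.63 (SE 0.14) after the correction. *Znfx1* (chr2:167035793-167063015) encodes a helicase that senses double-stranded RNA at mitochondria. Its level was 140.4, 169 and 149 CPM in WT replicates 1, 2 and 3 and 122, 98.8 and 79.7 CPM in KO replicates 1, 2 and 3. The order of the KO libraries was that of *Helz2*, and the log2 fold change was -0.61 (SE 0.15), or -0.43 (SE 0.087) corrected. *Cmpk2* (chr12:26469204-26479837), a mitochondrial nucleotide kinase gene, had 5.67, 7.28 and 7.40 CPM in WT replicates 1, 2 and 3 and 3.33, 4.37 and 4.53 CPM in KO replicates 1, 2 and 3. Here KO replicate 1 was the lowest, and the log2 fold change of -0.73 (SE 0.19) became -0.85 (SE 0.17). Beside it lies *Rsad2* (chr12:26442746-26456452), which encodes viperin, the enzyme that makes a chain-terminating nucleotide. *Rsad2* had 5.62, 6.57 and 6.51 CPM in WT replicates 1, 2 and 3 and 5.16, 4.20 and 5.40 CPM in KO replicates 1, 2 and 3, with a log2 fold change of -0.34 (SE 0.16), or -0.49 corrected, and no overlap in either case.

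*Adar* and *Ddx60* were the other genes of this group that were lower at an unadjusted p under 0.05 in both fits. *Adar* (chr3:89715022-89753446) encodes the enzyme that turns adenosine into inosine in double-stranded RNA. It had 82.3, 96.2 and 85.9 CPM in WT replicates 1, 2 and 3 and 65.4, 68.0 and 56.4 CPM in KO replicates 1, 2 and 3, and its p was the smallest of the 53 genes in the uncorrected fit, with a log2 fold change of -0.48 (SE 0.11, adjusted p = 0.147 by the quasi-likelihood test of edgeR). With the correction the log2 fold change was -0.35, under the fold limit, with an adjusted p = 0.0478 from the same test, and the adjusted p ran from 0.00369 to 0.442 over the alternatives. *Ddx60* (chr8:61928087-62038244) encodes a helicase of the RNA sensing pathway, and its promoter stretch above holds 2 ISRE cores. Its level was 4.76, 3.39 and 4.20 CPM in WT replicates 1, 2 and 3 and 2.71, 2.82 and 2.55 CPM in KO replicates 1, 2 and 3. The KO libraries lay close together and below the lowest WT library. A GC content of 40.2% set *Ddx60* among the low-GC genes, and its log2 fold change of -0.62 (SE 0.19) became -0.88 (SE 0.18), the largest of the list in the corrected fit. *Isg20*, a 3′ to 5′ exonuclease gene at 1.304 to 1.63 CPM in WT and 0.781 to 1.02 CPM in KO, had -0.70 uncorrected and -0.43 corrected. *Pnpt1*, the gene of a mitochondrial RNA-processing enzyme, was the one higher gene before the correction, at 44.1, 34.6 and 42.7 CPM in WT and 46.9, 46.9 and 63.0 CPM in KO. Its log2 fold change of 0.37 became 0.21 without KO replicate 3 and 0.072 with the correction. The cytidine deaminase gene *Apobec3* was the one higher gene after it, with 0.11 before and 0.22 after. *Samhd1*, which removes the building blocks of DNA, and *Eif2ak2*, the kinase PKR, had -0.0096 and 0.012 (SE 0.090 and 0.13), with overlapping libraries, and -0.0079 and -0.15 corrected.

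**Figure D4:**
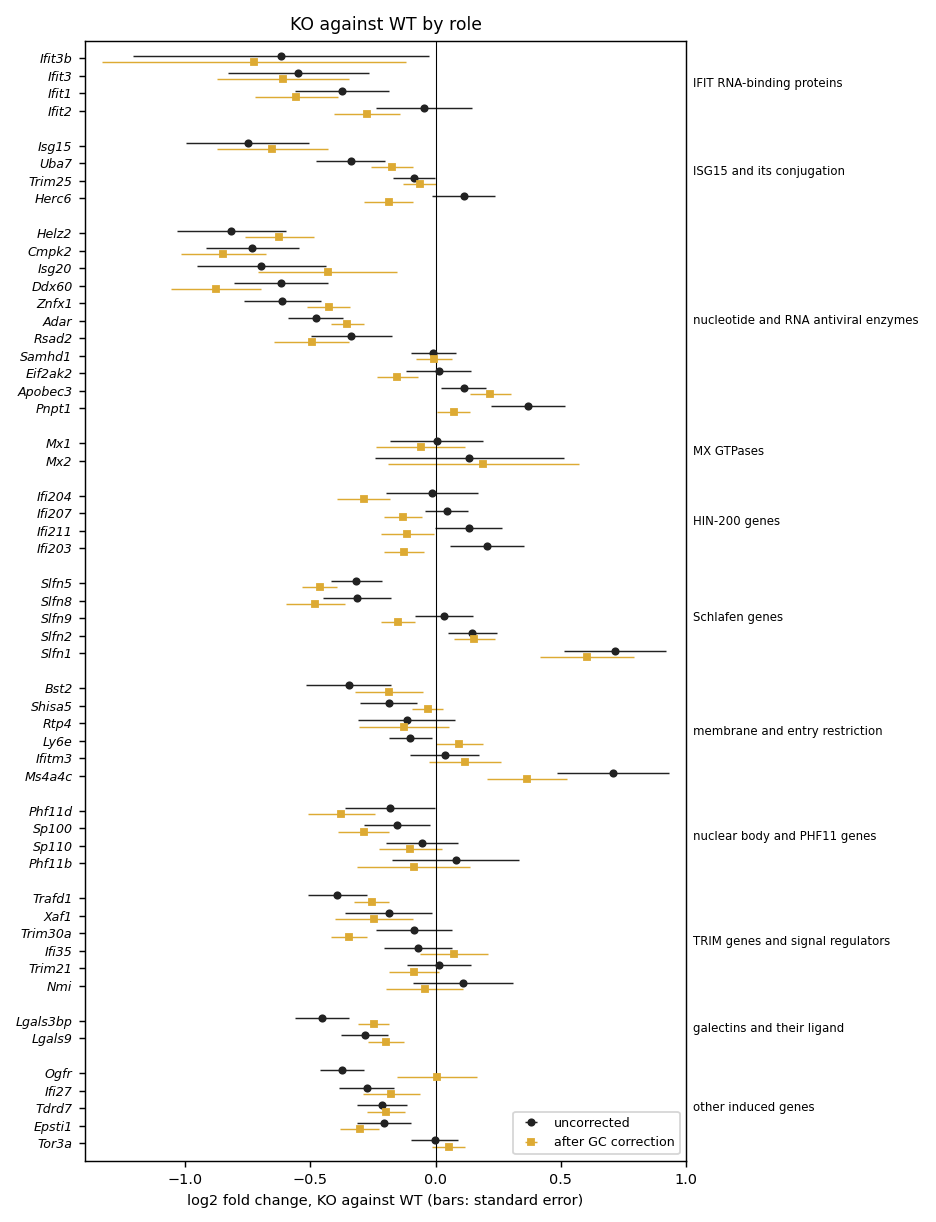
Log2 fold change of KO against WT with its standard error for the 53 tested genes by role, uncorrected (circles) and after the GC correction (squares). Of the circles 36 and of the squares 42 lie below 0, with *Helz2* at -0.82 and *Ddx60* at -0.88 the lowest of each kind.

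Among the fits on all 6 libraries, DESeq2 with the GC correction was the one with calls past the limits. It gave 45 of the genes an adjusted p and called 4 of them lower, *Cmpk2*, *Helz2*, *Slfn5* and *Znfx1*, and 0 higher, against 1.45% and 1.7% of the genes with an adjusted p. Its adjusted p was 0.00516 for *Cmpk2*, 0.000610 for *Helz2*, 0.000119 for *Slfn5* and 0.00160 for *Znfx1*. Over all alternatives the adjusted p ran from 0.00516 to 0.442, 1.91e-07 to 0.442, 6.09e-07 to 0.442 and 6.11e-08 to 0.442 in the same order. When each library was left out of that fit in turn, *Slfn5* was called in 6 of 6 fits, *Helz2* in 2, and *Cmpk2* and *Znfx1* in 1 each. *Cmpk2* was called without WT replicate 1, *Helz2* without KO replicate 1 or KO replicate 3 and *Znfx1* without KO replicate 1. The edgeR fit with the correction called 2 genes, *Slfn5* and *Znfx1*, without KO replicate 1 and 0 without each other library. The share of all genes called in these fits without a library is not given here, so these calls are not read against a background. DESeq2 without the correction, in which 42 of the genes had an adjusted p, called 0 at the limits, against 0.695% lower and 0.521% higher of the genes with an adjusted p. At an adjusted p under 0.05 with the same fold change it called 6 lower and 0 higher, against 4.26% and 3.3%.

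The Schlafen genes, a cluster on chromosome 11 whose first members were described as regulators of T cell growth, held values on either side of 0. *Slfn5* (chr11:82951349-82964840) had 79.8, 70.7 and 81.1 CPM in WT replicates 1, 2 and 3 and 63.0, 57.2 and 65.7 CPM in KO replicates 1, 2 and 3. Its KO libraries were all lower, and the log2 fold change of -0.32 (SE 0.10) became -0.46 (SE 0.070, adjusted p = 0.0312 by the quasi-likelihood test of edgeR with the correction). *Slfn8* was at 12.1, 14.1 and 13.6 CPM in WT and 10.2, 9.78 and 12.1 CPM in KO, with log2 fold changes of -0.31 and -0.48. Both have an ISRE core in their promoter windows, and so has *Slfn9*, whose values are given below. *Slfn1*, at a far lower level, had 1.605, 1.37 and 1.63 CPM in WT replicates 1, 2 and 3 and 2.29, 2.59 and 2.70 CPM in KO replicates 1, 2 and 3. Every KO library was above every WT library, with a log2 fold change of 0.72 (SE 0.20, adjusted p = 0.147) in edgeR's quasi-likelihood test and 0.61 (SE 0.19) corrected, and neither value passed the limits. *Slfn2* and *Slfn9* had overlapping libraries, with 0.15 and 0.034, or 0.15 and -0.15 corrected. The median of the 5 genes was 0.034 and turned to -0.15 with the correction.

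ISG15 is a ubiquitin-like protein that is joined to other proteins during the interferon response. *Isg15* (chr4:156199424-156200818) had 3.96, 3.34 and 4.51 CPM in WT replicates 1, 2 and 3 and 2.66, 2.82 and 1.58 CPM in KO replicates 1, 2 and 3. KO replicate 3 was the lowest, the libraries did not overlap, and the log2 fold change was -0.75 (SE 0.24, adjusted p = 0.147 by the quasi-likelihood test of edgeR). With the correction it was -0.65 (SE 0.22), and the GC-corrected libraries overlapped. *Uba7*, the enzyme that activates ISG15, had -0.34 (SE 0.14), or -0.17 with overlapping libraries after the correction, while *Herc6*, the ligase that attaches it in the mouse, and *Trim25*, a ubiquitin ligase of the RIG-I pathway, had 0.11 and -0.086, or -0.19 and -0.064 corrected. Of these 4 genes 2 were lower at an unadjusted p under 0.05 before the correction and 1, *Isg15*, after it, against 13.2% and 13.7% of all genes tested.

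**Figure D5:**
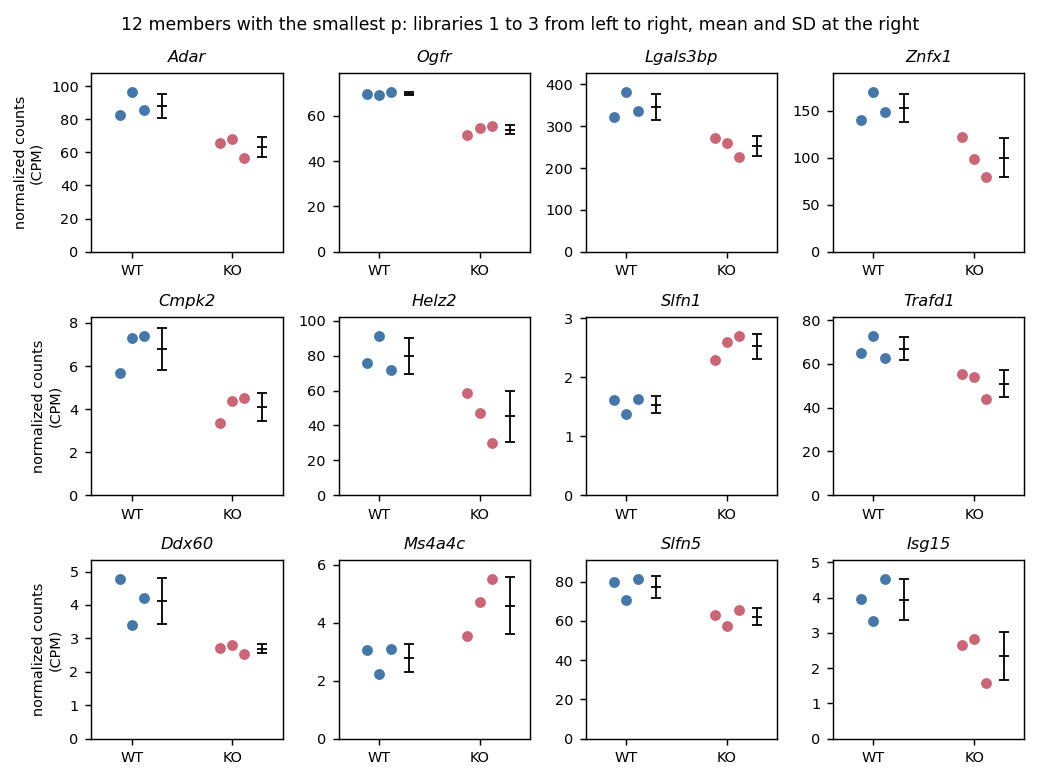
Normalized counts (CPM) of the 12 genes with the smallest p in edgeR's uncorrected fit, with WT and KO replicates 1 to 3 from left to right as points and the mean ± SD beside them. WT and KO points do not overlap for any of the 12, and *Slfn1* and *Ms4a4c* are the genes with KO above WT.

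The IFIT genes encode proteins that bind foreign RNA and block its translation. All 4 had log2 fold changes below 0 in both fits, with a median of -0.46 that became -0.58, at low counts and with wide errors. *Ifit1* had 3.01, 2.63 and 2.99 CPM in WT replicates 1, 2 and 3 and 2.19, 2.01 and 2.44 CPM in KO replicates 1, 2 and 3, without overlap, and its log2 fold change was -0.37 (SE 0.19) or -0.56 (SE 0.17) corrected. *Ifit3* had 2.61, 3.34 and 3.52 CPM in WT replicates 1, 2 and 3 and 1.302, 2.30 and 2.85 CPM in KO replicates 1, 2 and 3, and *Ifit3b* had 0.652, 0.602 and 0.315 CPM in WT replicates 1, 2 and 3 and 0.208, 0.690 and 0.153 CPM in KO replicates 1, 2 and 3. KO replicate 1 was the lowest for *Ifit3* and KO replicate 2 the highest for *Ifit3b*. In KO replicates 1 and 3 *Ifit3b* was near the floor of 3 counts, which is 0.150 to 0.173 CPM over the libraries, and its counts were low in every library. These paralogs are hard to count apart, since 51.2% of the 50-base windows of the *Ifit3* transcript also occur in *Ifit3b*. Their sum was 3.26, 3.94 and 3.83 CPM in WT replicates 1, 2 and 3 and 1.51, 2.99 and 3.004 CPM in KO replicates 1, 2 and 3. Before the correction the sum thus does not overlap between genotypes, unlike either gene alone. With the correction 3 of the 4 IFIT genes were lower without overlap, against 18.6% of all genes tested. At an unadjusted p under 0.05 in edgeR's corrected fit 2 of the 4, *Ifit1* and *Ifit3*, were lower, against 13.7%. *Ifit2* had -0.047 (SE 0.19), with overlapping libraries, and -0.27 corrected, without overlap.

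The galectin gene *Lgals9* and the ligand gene *Lgals3bp* were both lower at an unadjusted p under 0.05 in both fits. *Lgals3bp* (chr11:118392751-118402092) had 321, 381 and 337 CPM in WT replicates 1, 2 and 3 and 272, 260.3 and 227 CPM in KO replicates 1, 2 and 3. Its libraries did not overlap, and the log2 fold change of -0.45 (SE 0.11) became -0.25 (SE 0.062), under the fold limit. *Lgals9*, which encodes galectin-9, was at 71.0, 82.0 and 73.7 CPM in WT and 60.9, 63.3 and 62.1 CPM in KO, with -0.28 uncorrected and -0.20 corrected. After the correction the libraries of both genes overlapped.

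Among the TRIM genes and signal regulators *Trafd1* (chr5:121371725-121385632) had the smallest p in the uncorrected fit. It encodes a zinc finger protein known to dampen signals from Toll-like receptors. It had 65.2, 72.8 and 62.7 CPM in WT replicates 1, 2 and 3 and 55.3, 53.9 and 43.8 CPM in KO replicates 1, 2 and 3, and its log2 fold change of -0.39 (SE 0.12) became -0.26 (SE 0.069), without overlap in either case. *Trim30a*, another restraint on these receptors, was at 50.04, 39.8 and 49.6 CPM in WT and 37.4, 41.1 and 53.01 CPM in KO with -0.085 uncorrected. At a GC content of 40.8% it moved to -0.35 (SE 0.073), with an unadjusted p = 0.000935 by the quasi-likelihood test of edgeR. *Xaf1*, *Ifi35*, its partner *Nmi* and the antibody receptor gene *Trim21* had log2 fold changes between -0.19 and 0.11 with overlapping libraries, and between -0.25 and 0.073 after the correction, where KO lay below WT without overlap for *Nmi* and *Trim21*. Of the 6 genes of this group 1 was lower at an unadjusted p under 0.05 before the correction and 2 after it, against 13.2% and 13.7% of all genes tested.

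The genes that act at membranes were mixed. *Ms4a4c* (chr19:11404770-11427246), a tetraspan membrane protein gene, had 3.06, 2.24 and 3.10 CPM in WT replicates 1, 2 and 3 and 3.54, 4.72 and 5.50 CPM in KO replicates 1, 2 and 3. All KO libraries were above the WT libraries, and the log2 fold change of 0.71 (SE 0.22) became 0.37 (SE 0.16), with overlap, at a GC content of 38.1%, the lowest of the list. *Bst2*, the gene of tetherin, which holds new virus particles on the cell, was at 81.2, 66.4 and 83.7 CPM in WT and 65.8, 70.7 and 45.3 CPM in KO, where KO replicate 3 was far below the others and the groups overlapped. Its log2 fold change was -0.35 (SE 0.17), or -0.18 without KO replicate 3 and -0.19 with the correction. *Shisa5* and *Rtp4* had -0.19 and -0.12, or -0.032 and -0.13 corrected. The median of the 6 genes, -0.11, turned to 0.032 with the correction.

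The MX, HIN-200 and nuclear body genes had overlapping libraries before the correction. *Mx1* and *Mx2*, dynamin-like GTPases that trap incoming virus, had 0.0043 (SE 0.18) and 0.13 (SE 0.38), at 2.31 to 2.74 CPM and 0.383 to 0.840 CPM in WT. The HIN-200 genes, which include sensors of DNA, had log2 fold changes from -0.016 for *Ifi204* to 0.21 for *Ifi203*, and all 4 were below 0 with the correction, from -0.29 to -0.11. *Ifi204* had 24.4, 21.4 and 29.1 CPM in WT replicates 1, 2 and 3 and 21.8, 20.7 and 31.5 CPM in KO replicates 1, 2 and 3, and *Ifi211* had 13.9, 13.2 and 13.0 CPM in WT replicates 1, 2 and 3 and 12.7, 14.7 and 16.5 CPM in KO replicates 1, 2 and 3. Both overlapped between genotypes. They share 23.2% and 30.1% of their 50-base windows, and their summed level was 38.3 ± 3.75 CPM in WT and 39.3 ± 7.59 in KO (SD, n = 3). The nuclear body genes *Sp100* and *Sp110* and the PHF11 genes had a median of -0.10, or -0.19 corrected, and *Sp100* (-0.29) and *Phf11d* (-0.38) had an unadjusted p under 0.05 in edgeR's test with the correction. Of the other induced genes beside *Ogfr*, *Ifi27* had -0.28, *Tdrd7* -0.21, *Epsti1* -0.21 and *Tor3a* -0.0031, with KO below WT without overlap for *Ifi27*, *Tdrd7* and *Epsti1*. With the correction these were -0.18, -0.20, -0.30 and 0.052, and the libraries of *Ifi27* overlapped.

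The genes with an ISRE core in a promoter window and those without one both had medians below 0. With the core there were 23 genes, at a median of -0.21 on the log2 scale, or -0.19 corrected, with 6 lower and 0 higher at an unadjusted p under 0.05, and 10 and 1 with the correction. The other 23, tested and with a window but no core, had -0.16, or -0.25 corrected, with 8 lower and 3 higher, and 9 and 2 with the correction. Of all genes tested, 13.2% were lower and 13% higher by this rule, or 13.7% and 12.1% with the correction. Their difference was not tested.

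The genes of the pathway upstream were read from lists of 45 names, of which 43 genes were in the table and 33 were tested, with none past the limits in edgeR's test. At an unadjusted p under 0.05, 14 were lower and 0 higher, against 13.2% and 13% of all genes tested, and 15 and 0 with the correction, against 13.7% and 12.1%. DESeq2 called 1 lower, *Irf7*, past the limits, against 0.695% of genes lower and 0.521% higher. With the correction it called 2, *Irf7* and *Rigi*, against 1.45% and 1.7%. The ligands were close to absent. Of 10 interferon genes, *Ifnb1* among them, 9 had 0 counts in every library and *Ifnk* had 1 count in KO replicate 2, and a count of 0 allows a level of up to 0.150 to 0.173 CPM in a library. Of the 6 receptor genes, *Ifnar1* had -0.25 (SE 0.10) and *Ifnar2* had 0.070 (SE 0.083), or -0.23 and 0.11 corrected, and each had libraries that did not overlap, in opposite directions.

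The kinases and transcription factors that carry the signal held 6 of the 14 lower genes, or 7 of 15 with the correction, out of 11 tested, against 13.2% of all genes tested, or 13.7% corrected. *Irf7*, at 17.0 ± 0.718 CPM in WT and 8.17 ± 0.691 CPM in KO (SD, n = 3), had the largest log2 fold change of the pathway lists, -1.06 (SE 0.12), and an adjusted p = 0.0635 by the quasi-likelihood test of edgeR that ran from 1.09e-07 to 0.348 over the alternatives. *Stat2* had -0.46 (SE 0.12), *Irf9* -0.33 (SE 0.11), *Irf8* -0.44, *Tyk2* -0.52 and *Irf5* -0.33, all without overlap. With the correction *Irf7* was at -0.87, *Stat2* at -0.38, *Irf9* at -0.29, *Irf8* at -0.37, *Tyk2* at -0.28 and *Irf5* at -0.12, the last pair with overlapping libraries. Of the 6 inhibitors 3 were lower at an unadjusted p under 0.05, against the same 13.2%, and 1, *Usp18*, with the correction, where 1 of 6 is close to the 13.7% over all genes, and their median moved from -0.41 to -0.18. *Socs3* went from -0.56 to -0.24 and *Ptpn6* from -0.27 to -0.092, both with overlapping libraries after the correction. *Usp18*, which removes ISG15 from proteins and blocks the receptor, had 4.86, 3.995 and 5.30 CPM in WT replicates 1, 2 and 3 and 2.92, 2.99 and 2.65 CPM in KO replicates 1, 2 and 3. Its KO libraries were all lower, with a log2 fold change of -0.73 (SE 0.18), or -0.68 corrected. Of the 10 tested sensors 4 were lower by the same rule, against 13.2% of all genes, and 6 with the correction, against 13.7%. The 4 were *Zbp1* (-0.87), *Tlr9* (-0.68), *Dhx58* (-0.45) and *Rigi* (-0.37). With the correction they were at -0.82, -0.48, -0.30 and -0.46, with overlapping libraries for *Tlr9* and *Dhx58*. *Rigi* had the smallest p of the sensors there (adjusted p = 0.0452 from edgeR's test, 0.00112 to 0.442 over the alternatives).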

How the data were processed

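The authors deposited 1 table of estimated counts per gene, not normalized, from stranded mRNA libraries. The submitters' processing notes name fastp, HISAT2, StringTie, RSEM and the build GRCm39, without versions. Values were rounded, since 25.1% to 26.6% of the genes detected in a library were not whole. The means per genotype in the table were not used. Groups are the genotypes in the labels. In R 4.3.3, edgeR 4.0.16 was run with filterByExpr, TMM, glmQLFit (legacy = FALSE) and glmQLFTest, with the Benjamini-Hochberg adjustment over all 13428 genes tested. The common biological coefficient of variation was 0.142, and p-values measure the spread between 3 libraries per genotype. DESeq2 1.42.0 and limma 3.58.1 were alternatives. An adjusted p that DESeq2 leaves empty stayed so. The GC correction enters a natural spline with 5 degrees of freedom of each library's deviation against GC content of the longest transcript as offsets. Positions, length and GC content are from GENCODE M21 on GRCm38, and promoters from RefSeq on GRCm38.p6. The fits were tested on simulated data. The values of 1 pathway gene and 1 further motif are not reported here. The members and lists were chosen with earlier results of these data known. Every member may be named. Values by library are given for genes past the limits in any of the edgeR and DESeq2 fits with and without the correction. They are also given for the 12 with the smallest p, the 3 highest, and genes with a sign change and a log2 fold change past 0.2. The pairs that share most sequence, *Ifit3* with *Ifit3b* and *Ifi204* with *Ifi211*, have them too, as have some others chosen after their values were seen. Leaving out libraries in the GC-corrected DESeq2 fit was added after the data were seen. A floor of 3 counts covers counting error only. A permutation test over samples was not used.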

Additional observations from a re-analysis of the deposited data

How the results depend on the processing

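Among the alternative values of the counts and the median, 246 stayed within 1.5 times the reported count or the spread between replicates and 35 moved further. The number of effector genes past the limits in the lower direction was 4 with the GC correction in DESeq2 and 0 to 3 when each library was left out. At an unadjusted p under 0.05 there were 9 to 19 lower and 0 to 4 higher without each library. In the uncorrected edgeR fits among these, 9 to 19 of the 53 genes were lower and 2 to 3 higher. Of all genes 5.6% to 16.7% were lower and 5.61% to 16.5% higher in the same fits. In DESeq2 with the GC correction there was 1 higher gene, where 1441 of all 13428 genes were higher. KO lay above WT without overlap for 3 to 8 genes without each library, against 19.5% to 26.8% of all genes in the same fits. The median log2 fold change of the effector genes was -0.20 to -0.065. Of the pathway genes, 1 passed the limits as lower in DESeq2 and 2 with the GC correction in DESeq2, against 0.695% and 1.45% of genes with an adjusted p. Without each library 0 to 4 passed, while 9 to 16 were lower and 0 to 1 higher at an unadjusted p under 0.05. The shares of all genes in the corrected fits without a library are not given here, so the ranges over them are not read against a background. The 36 genes followed under the alternatives were chosen by size of change, p, level or shared sequence. Most had a log2 fold change of at least 0.2 either way in the uncorrected or the corrected fit, so many genes near 0 were left out. Of these 36, 8 changed direction under an alternative, while of all 53 genes 14 changed sign with the GC correction alone. *Ifi203* was at -0.13 with the GC correction, -0.13 with the correction and the replicate block and -0.12 with the correction in DESeq2 (-0.14 to 0.28 without each library). In the same order *Ifi211* was at -0.11, -0.11 and -0.11 (-0.17 to 0.23), and *Ly6e* at 0.10, 0.088 and 0.10 (-0.13 to 0.18). *Ogfr* was at 0.0050 with the correction and 0.0066 with it in DESeq2 (-0.39 to 0.14). Without each library *Ifi204* ran from -0.37 to 0.11, *Ifit2* from -0.38 to 0.078, *Ifitm3* from -0.092 to 0.25 and *Trim30a* from -0.38 to 0.020. Apart from the GC correction, whose own construction moves these genes, the cause was not tested.

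Replicate numbers are shared by the genotypes, but same-numbered libraries had correlations of -0.215, 0.0766 and 0.166 between their deviations, so the numbers were not taken as pairs. With the replicate block 0 effector genes passed the limits, 14 were lower and 3 higher at an unadjusted p under 0.05, against 13.9% and 12.6% of all genes, and the median was -0.12. With the block and the GC correction 19 were lower and 2 higher, against 11.6% and 10.8%. At an adjusted p under 0.05 and a fold change above 1.3 this fit called 0 effector genes, so that the call of *Slfn5* was lost. It called 17 lower and 16 higher of all 13428 genes.

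There were 3 libraries per genotype, with a biological coefficient of variation of 0.142 and mean levels between 0.350 and 6.56 CPM for the IFIT, MX and *Isg15* genes. The part of depth in the number of calls was not tested, and a p that misses the limits does not show equal levels. A shift in cell types between the genotypes cannot be told apart from a change within cells.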
